A study of Mus musculus with 14 samples.

Results

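CRTC2 peaks of 3T3-L1 cells exposed to forskolin (FSK) were compared with those of untreated cells. A peak of the FSK list was kept when it overlapped a peak of the control list by at least 1 bp and gained when it did not, and a control peak with no overlap in the FSK list was not called again. Of the 11749 peaks with FSK, 9914 (84.4%) were gained and 1835 (15.6%) were kept, and of the 5188 control peaks, 3353 (64.6%) were not called again. The 2 lists hold 16937 of the 243429 regions in the 12 lists of the series. The cells come from a mouse preadipocyte line that turns into adipocytes in culture, and the labels and the study describe them as differentiated adipocytes. They were left untreated or received 10 µM FSK for 1 h, and CRTC2 was immunoprecipitated with an antibody made in the authors' laboratory. Other CRTC2 libraries used below came from cells given the cytokine TNFα (10 ng/ml in the study) for 1 h, without or with FSK. Each treatment had 1 library, so no difference has a replicate check, no test was made, and the 95% Wilson intervals given with shares cover counting error over peaks only.

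FSK activates adenylyl cyclase and raises cyclic AMP. Protein kinase A then phosphorylates CREB and inhibits the salt-inducible kinases, which otherwise keep CRTC coactivators phosphorylated and in the cytoplasm. Dephosphorylated CRTC2 enters the nucleus and joins CREB on cyclic AMP response elements (CREs), whose core is TGACG and whose complete palindrome is TGACGTCA. Known targets include early genes such as Nr4a1, Fos, and Sik1.

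The libraries differed in more than the treatment. The control library held 18885214 tags and the FSK library 16438040, but tags counted at most once per position came to 7812000 and 9304000, so the FSK library was 0.870 times as deep by the first measure and 1.19 times as deep by the second. Each library was called against an input of its own treatment, which removed 58.1% of putative control peaks and 42.9% of putative FSK peaks, and the caller required 8 tags per peak in control cells and 9 with FSK. Peaks held 0.622% of control tags and 1.94% of FSK tags. The treatment, the depth, and the input cannot be told apart as sources of the difference in list length. A peak under the threshold has no listed value, so "gained" and "not called again" describe lists and not a signal of 0. The adipocyte label was checked by H3AcK27, an acetylated histone mark of active promoters and enhancers. Regions of control cells covered a start of 3 of 8 adipocyte markers (Fabp4, Lpl, and Pparg, but not Adipoq, Cebpa, Plin1, Cd36, or Cidec), 5 of 6 preadipocyte or fibroblast markers, 1 of 5 macrophage or immune markers, and 0 of 3 endothelial markers, beside 49.5% of all protein-coding genes. With FSK they covered 2, 4, 1, and 0 of these markers, beside 43.8% of all genes. Regions within 1 kb of a start, counted after the data were seen, gave 3 of 8 adipocyte, 5 of 6 preadipocyte or fibroblast, 1 of 5 macrophage or immune, and 1 of 3 endothelial markers in control cells, and 3, 4, 2, and 0 with FSK.

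Reference sequence at 12 promoter peaks is given first because these early or leading genes carry a CRE close to the start of the gene. Sequence is from GRCm38 (mm10), read 5′ to 3′ on the plus strand of the chromosome, and capitals mark TGACG, its reverse complement CGTCA, or TGACGTCA. Each stretch is centered on the match nearest to the peak midpoint. The first 9 peaks were gained, and those of Fos, Ier2, and Rgs2 were kept.
Nr4a1, chr15:101266778-101266837: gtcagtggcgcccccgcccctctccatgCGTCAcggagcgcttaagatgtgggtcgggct
Nr4a3, chr4:48045145-48045174: cctgtggcataaaTGACGtgccgagagagc
Nr4a2, chr2:57124171-57124230: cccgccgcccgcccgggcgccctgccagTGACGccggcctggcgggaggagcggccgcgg
Sik1, chr17:31855963-31856022: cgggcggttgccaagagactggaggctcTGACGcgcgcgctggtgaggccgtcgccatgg
Pde10a, chr17:8525034-8525093: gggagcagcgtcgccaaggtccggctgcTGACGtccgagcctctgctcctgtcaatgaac
Btg2, chr1:134079078-134079107: attagaacgatgaTGACGgtctggccacct
Ptgs2, chr1:150100031-150100060: agagtcaccactaCGTCAcgtggagtccgc
Babam2, chr5:31698502-31698561: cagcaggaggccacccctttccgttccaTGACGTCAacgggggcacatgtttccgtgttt
Tcim, chr8:24438998-24439027: caaattacactggTGACGTCAcattgatcc
Fos, chr12:85473796-85473855: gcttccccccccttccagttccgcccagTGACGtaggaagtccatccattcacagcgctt
Ier2, chr8:84662862-84662921: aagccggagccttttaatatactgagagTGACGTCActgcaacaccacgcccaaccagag
Rgs2, chr1:144004184-144004243: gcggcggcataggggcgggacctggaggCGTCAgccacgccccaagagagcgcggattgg
The center of the marked CRE lay 39 bp upstream of the start of Nr4a1, an orphan nuclear receptor gene, 188 bp upstream for Sik1, a salt-inducible kinase gene, and 309 bp upstream for Pde10a, a cyclic nucleotide phosphodiesterase gene. It lay 65 bp upstream of Fos and 39 bp upstream of Ier2. For Nr4a3, Ptgs2 (a prostaglandin synthase), and Btg2 (an antiproliferative gene), it lay 6, 14, and 28 bp downstream of the start. The complete palindrome was the nearest match at Babam2, Tcim, and Ier2. The 200 bp around the midpoint of the Sik1 peak also held a palindrome, outside the stretch shown.

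Another set shows distal CREs of gained peaks, 1 of them with the single core and the others with a core and a palindrome side by side.
Vdr, chr15:97914438-97914497: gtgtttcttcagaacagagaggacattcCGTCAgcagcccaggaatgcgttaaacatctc
Cebpb, chr2:167777435-167777494: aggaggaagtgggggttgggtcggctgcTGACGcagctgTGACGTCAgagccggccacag
Mef2d, chr3:88138402-88138461: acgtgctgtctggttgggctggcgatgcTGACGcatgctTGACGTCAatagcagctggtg
The Vdr peak lay 3877 bp upstream of that gene for the vitamin D receptor, the Mef2d peak 3942 bp upstream of its gene, and the nearest protein-coding gene of the other was Cebpb, which encodes a C/EBP factor of early adipogenesis, 88550 bp away. Another set shows 3 gained distal peaks with an AP-1 site, TGAGTCA or TGACTCA on either strand, which FOS and JUN factors bind.
Notch3, chr17:32108936-32108995: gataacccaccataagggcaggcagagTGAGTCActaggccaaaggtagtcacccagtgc
Magi3, chr3:104296046-104296105: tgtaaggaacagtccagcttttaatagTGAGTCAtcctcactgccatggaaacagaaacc
Aox2, chr1:58304588-58304647: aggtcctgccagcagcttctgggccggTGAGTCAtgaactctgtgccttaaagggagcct
Their nearest genes were Notch3 at 28917 bp, Magi3 at 75606 bp, and Aox2 at 26216 bp.

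CRTC2 at genes of the cyclic AMP response was described with a list of 32 cAMP-responsive early genes. A gene was assigned the strongest peak whose midpoint lay within 1 kb of one of its starts, the distance used for promoters throughout. Of the 32 genes, 15 (46.9%) had a promoter peak in the FSK list only, compared with 18.6% of all 21842 protein-coding genes. Here and below, FSK only means in the FSK list and not in the control list. Of these 15 genes, 10 also had a promoter peak with TNFα. Counted by peak overlap and not by gene, 70.2% of all gained promoter peaks were called with TNFα. Another 10 (31.3%) had peaks in both lists, compared with 10.5% of all genes, and 1 gene had a peak in the control list only, compared with 2.13% of all genes. The other 6 (Atf3, Areg, Cebpb, Pde4d, Nfil3, and Pck1) had no promoter peak in either list. With 8-fold enrichment over input required, 14 and 10 of the early genes fell in the groups with FSK only and with both lists. Over all 21842 genes, 2917 and 1042 did.

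Signal at each peak is given as the normalized tag count, the tags in the peak per 10000000 tags of its library. Nr4a1 had 104.0 with FSK, at rank 25 of the list, and no control peak within 1 kb. Its relatives had 28.0 (Nr4a3) and 12.2 (Nr4a2). All members of this receptor family were thus in the FSK list and not in the control list, at ranks from 25 to 6445 of 11749. Dusp1, a phosphatase of MAP kinases, had 75.4, Btg2 70.6, Pde10a 65.1, Sik1 52.3, and Ptgs2 38.9. Sik1 and the phosphodiesterases Pde10a and Pde4b (18.9) act as brakes on the pathway. The lowest of the 15 were Fosb and Per2 at 9.73 each. Of the 15 peaks, 10 held a CRE in the 200 bp around their midpoint, compared with 28.3% of all gained promoter peaks.

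Early genes with peaks in both lists all had more tags with FSK. Over all genes with peaks in both lists, 351 of 2296 had fewer. The values compare the strongest peak of each list, and at Jund and Crem these peaks did not overlap. The immediate early gene Ier2 went from 27 in control cells to 87.0, and Junb, a subunit of AP-1, from 44.5 to 97.9. Id1, an inhibitor of helix-loop-helix factors, had 15.4 and 71.2, and Gadd45b, a stress-induced gene, 30.2 and 69.4. In 9 of the 10 genes the count was at least 2-fold higher with FSK, compared with 31.4% of all genes with peaks in both lists. The exception was Rgs2, a regulator of G-protein signaling, with 18.5 and 32.9. By scores scaled to tags counted once per position, an alternative chosen after the data were seen, all 10 genes were at least 2-fold higher and Rgs2 had a ratio of 2.17. Fos had 10.6 tags at rank 2525 of the control list and 28.0 at rank 943 of the FSK list. Crem, which encodes a CREB relative and the repressor ICER, had 12.7 and 38.3, in peaks that lay 138 bp and 3 bp upstream of a start. Fosl2 was the gene with a peak in the control list and not the FSK list, at 9 tags and 7.71-fold enrichment over input. It had promoter peaks of 20.4 tags with TNFα and 42.4 with FSK and TNFα.

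**Figure D1:**
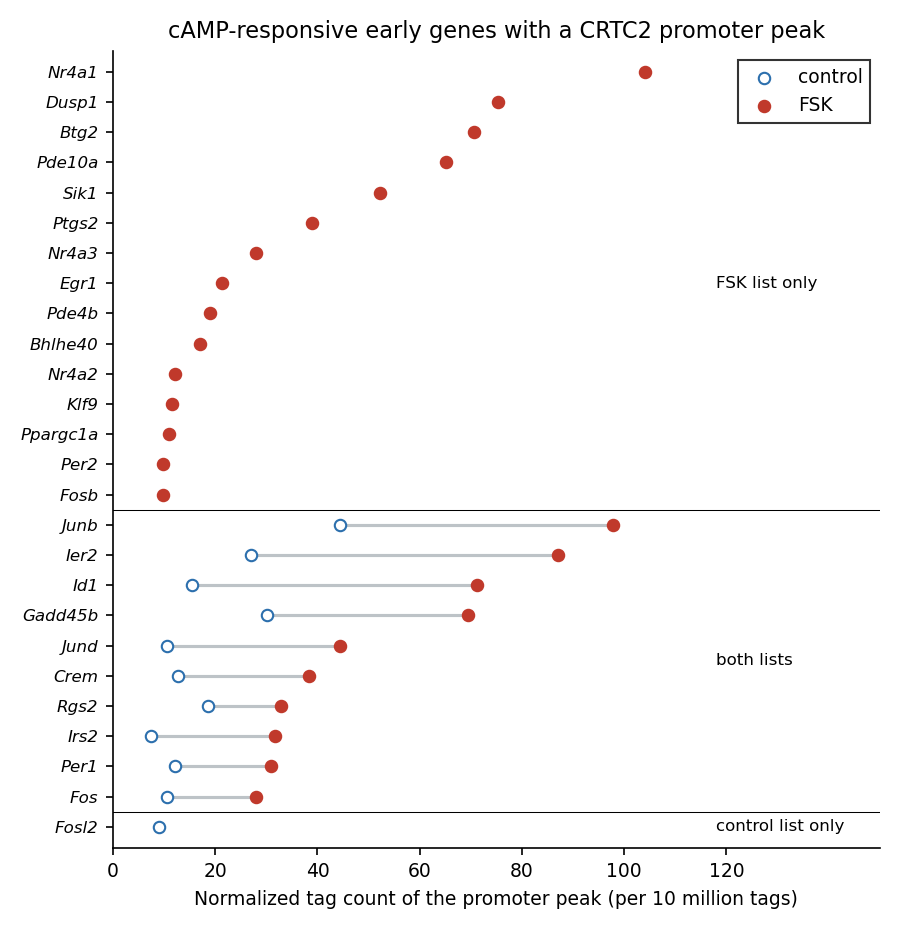
Normalized tag count (tags per 10000000, linear axis) of the strongest CRTC2 peak within 1 kb of a start, for the 26 cAMP-responsive early genes with such a peak, in the FSK list (filled) and the control list (open), 1 library each. The 10 genes with both values all lie higher with FSK, and values of the 15 genes in the FSK list but not the control list run from 9.73 to 104.0. Over all genes with both values, 351 of 2296 were lower with FSK.

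Some genes of the pathway itself had promoter peaks. Of 25 genes that encode CREB, CRTC, and SIK proteins and their regulators, 10 (40%) had a promoter peak with FSK only and 8 (32%) in both lists, compared with 18.6% and 10.5% of all genes. Crtc3, Crebbp, Ywhab, Pde3b, Pde4d, Adcy3, and Akap12 had none in either list. Creb1 had 19.1 tags in control cells and 54.1 with FSK, and Crtc2, the gene of the coactivator, had 9 and 26.2. All 3 SIK genes had a promoter peak with FSK and none in the control list, at 52.3 (Sik1), 33.5 (Sik3), and 13.4 (Sik2). With TNFα they had promoter peaks of 13.2, 10.2, and 21.2. The kinase A subunit genes Prkaca and Prkacb had 15.8 and 11 with FSK and no promoter peak in the control list. All 10 pathway genes with a peak in the FSK list only also had a promoter peak with TNFα. By peak overlap, 70.2% of all gained promoter peaks were called with TNFα. Of the 8 genes with both values, 6 were at least 2-fold higher with FSK, compared with 31.4% of all genes with peaks in both lists. Only 1 was lower, Creb3l2 with 22.8 and 18.9, compared with 351 of 2296 over all such genes. These values compare the strongest peak of each list, which need not overlap. At the overlapping peaks of Ep300 the ratio of FSK to control was 0.961 and at those of Stk11 it was 1.89, whereas Creb3l2 had one pair at 2.38 and another at 0.561. By scores scaled to tags counted once per position, 4 of the 8 genes were at least 2-fold higher and none was lower. With 8-fold enrichment over input required, the 10 and 8 genes became 6 and 4, and 2 counted with control only. Over all 21842 genes, 2917, 1042, and 796 fell in these groups.

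Inflammatory genes were present in both sets. Of 16 genes, 5 (31.3%) had a promoter peak with FSK only and 6 (37.5%) in both lists, compared with 18.6% and 10.5% of all genes. The gained peak of Cxcl1, a neutrophil chemokine, had 59.0 tags, and those of Socs3 and Nfkbia, which restrain cytokine and NF-κB signaling, had 41.4 and 37.1. The monocyte chemokine genes Ccl2 and Ccl7 went from 39.2 to 58.4 and from 24.4 to 65.7, Il6 from 14.8 to 34.1, and Csf1, which encodes a macrophage growth factor, from 20.1 to 51.1. In 3 of the 6 genes with both values the count was at least 2-fold higher, compared with 31.4% of all such genes. With 8-fold enrichment over input required, 3 genes counted in both lists and 6 with FSK only, compared with 1042 and 2917 of all 21842 genes. Cxcl2, Lif, Tnf, Il1b, and Icam1 had no promoter peak in either list.

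Among 24 adipocyte and lipid genes, 7 (29.2%) had a promoter peak with FSK only and 5 (20.8%) in both lists, compared with 18.6% and 10.5% of all genes, and 12 had none. With 8-fold enrichment over input required, the 5 became 1, and with lists of equal size the 7 and 5 became 3 and 3. Over all 21842 genes, 1042 had peaks in both lists at 8-fold. With lists of equal size, 2005 of all genes had a peak with FSK only and 1767 in both. Peaks at 3 genes of lipid synthesis had more tags with FSK. Dgat2 had 19.6 in control cells and 60.8 with FSK, Fasn 20.7 and 53.5, and Acly 18.5 and 50.5. Cebpd, an early adipogenic factor, had 66.9 with FSK, 45 with TNFα, and no control peak, and the insulin receptor gene Insr had 26.8 with FSK. Lpl went the other way, with 12.2 and 6.69, and Fabp4 had 7.41 and 8.52. The lipase genes Pnpla2 and Lipe had gained peaks of 14 and 9.73. Adipoq, Cebpa, Plin1, Slc2a4, and the desaturase gene Scd1 were among those with no promoter peak in either list.

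The classes lay at different distances from genes. Kept peaks were mostly promoter peaks. In all, 1680 of 1835 (91.6%, interval 90.2% to 92.7%) lay within 1 kb of a protein-coding start, 61.9% within 100 bp, and their median distance was 69 bp. Gained peaks were split, with 4716 of 9914 (47.6%, 46.6% to 48.6%) within 1 kb and 873 (8.81%) beyond 100 kb. Of control peaks not called again, 861 of 3353 (25.7%, 24.2% to 27.2%) lay within 1 kb and 764 (22.8%) beyond 100 kb, with a median distance of 16525 bp. Of the 5198 gained distal peaks, 42.9% lay in introns and 53.4% between genes. The difference between the last 2 classes depended on the tag minimum. For this, 15 normalized tags were required in each list and the classes were formed again. Then 65.8% of 4101 gained peaks and 64.5% of the 287 control peaks not called again lay within 1 kb. Peaks whose partner fell under 15 tags changed class, so these shares do not describe the stronger members of the classes above. Of the 4716 gained promoter peaks, 690 (14.6%) lay at a gene that already had a control peak within 1 kb.

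**Figure D2:**
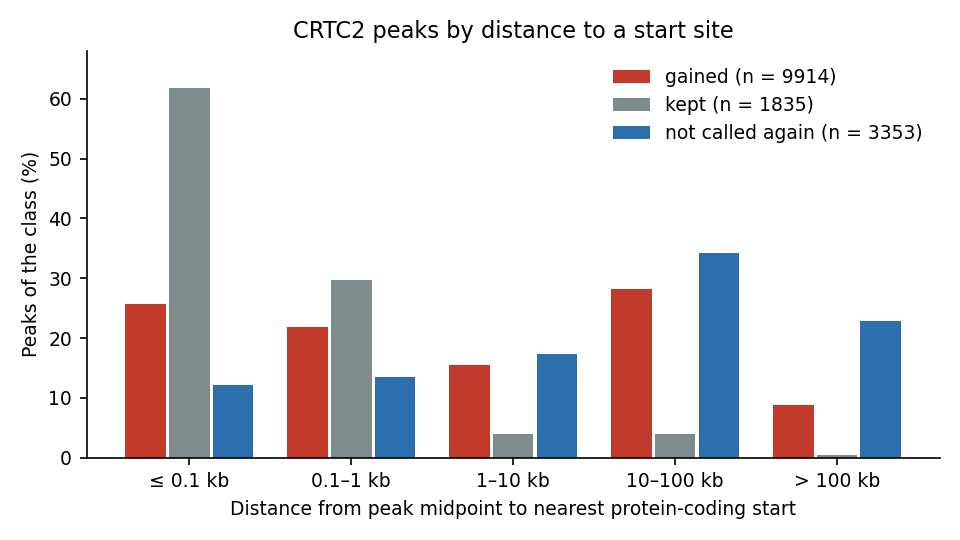
Share of each class of CRTC2 peaks (%) by distance from the peak midpoint to the nearest protein-coding start (GENCODE). Kept peaks (gray) pile up within 0.1 kb (61.9%), gained peaks (red) have 25.8% there, and peaks not called again (blue) reach 22.8% beyond 100 kb.

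Kept distal peaks were few, and many lay at starts of noncoding genes. Within 1 kb of such a start were 66 of 155 kept distal peaks (42.6%, 35.1% to 50.5%), 25 of them at small noncoding RNAs, compared with 6.06% of gained distal peaks and 3.13% of distal peaks not called again. The strongest had 104.0 tags with FSK and 72.5 in control cells, 31 bp from the start of Malat1, an abundant nuclear RNA. Another lay 8 bp from Scarna2, a small Cajal body RNA, with 98.6 and 34.9. The third lay in an intron of Tex14, 359 bp from Rnu3b3, with 98.6 and 48.7. Rnu3b3 belongs to a multicopy family, and reads of such copies cannot be placed with certainty.

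Sequence within 200 bp differed between the classes. The core occurred in 25.8% of gained peaks, 28.7% of kept peaks, and 8.44% of peaks not called again. At promoters it occurred in 28.3% of gained (27.02% to 29.6%), 29.3% of kept (27.2% to 31.6%), and 18.9% of peaks not called again (16.5% to 21.7%), compared with 18.2% of windows on all protein-coding starts. At distal sites it occurred in 23.6% of gained peaks (22.5% to 24.8%) and 4.82% of peaks not called again (4.04% to 5.73%), whereas windows 2 kb away from these peaks held it in 6.18% and 5.62%. Distal peaks not called again were thus at the level of their surroundings, and gained peaks were above it. The complete palindrome showed the same order, with 2.81% of gained, 3.05% of kept, and 0.298% of peaks not called again. It occurred in 1.58% of start windows. With 15 normalized tags required, the core occurred in 35.0% of gained peaks and 17.8% of peaks not called again.

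AP-1 sites were found mostly at gained distal peaks. It occurred in 24.1% of them (23.0% to 25.3%), compared with 3.5% of windows 2 kb away, 7.74% of kept distal peaks (4.48% to 13.04%), and 4.61% of distal peaks not called again (3.86% to 5.51%). At promoters it occurred in 2.82% of gained and 1.90% of kept peaks, compared with 2.69% of all start windows. Either the CRE core or an AP-1 site was present in 40.7% of gained distal peaks, and both were present in 362. The C/EBP motif (TTGCGCAA or TTGCANAA) occurred in 7.35% of gained distal peaks and 2.94% of their surroundings. The CCAAT box (CCAAT) was no more frequent in gained peaks (22.7%) than 2 kb away (24.8%), and the GC box (GGGCGG) occurred in 47.2% of gained and 52.7% of kept promoter peaks, compared with 37.3% of start windows. The NF-κB motif was found in 15 gained peaks and the nuclear receptor DR1 motif in 2, each by exact match on both strands.

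**Figure D3:**
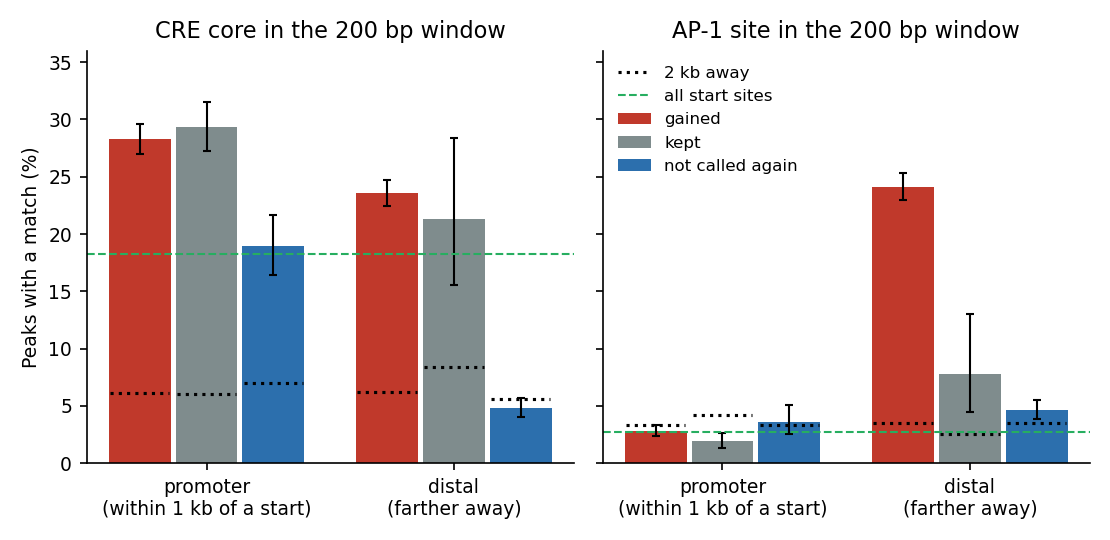
Share of CRTC2 peaks (%) with a CRE core (left) or AP-1 site (right) in the 200 bp around the midpoint, by class and position, with 95% Wilson intervals over peaks. Dotted lines give windows 2 kb away and the dashed line all start windows. The red bars show 24.1% of gained distal peaks with an AP-1 site, compared with 2.82% of gained promoter peaks.

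Acetylation, a readout that the classes did not use, was present in control cells at most gained peaks. Of gained peaks, 84.9% lay in an H3AcK27 region of control cells and 81.7% in one of FSK cells, although the FSK library for this mark was shallow (9832884 tags, compared with 27601287). Only in FSK regions were 249 gained peaks (2.51%), and 1251 (12.6%) were in neither. Kept peaks lay in control regions in 98.7% of cases. Among distal peaks, 72.8% of gained (71.6% to 74.0%) and 18.5% of those not called again (17.0% to 20.1%) lay in control regions. Nr4a1 was among the peaks in FSK regions alone, and Pde10a, with 65.1 tags, lay in no region of either library. With 15 normalized tags required, 96.0% of gained peaks and 74.6% of peaks not called again lay in control regions.

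The other CRTC2 libraries were listed over the same positions in part. With FSK and TNFα together, 4898 of 9914 gained peaks (49.4%, 48.4% to 50.4%) were called again, as were 79.6% of kept peaks and 11.2% of peaks not called again. With TNFα alone, the gained promoter peaks were called in 70.2% of cases and the gained distal peaks in 12.5%, a difference between positions that was smaller with FSK and TNFα (58.9% and 40.8%). The library with FSK and TNFα was called against the same input as the FSK library, and the library with TNFα against the input of the control library. Among gained distal peaks, those with a CRE core were called again with FSK and TNFα in 65.3% of cases and those with an AP-1 site in 56.3%. Those with both were called again in 73.8%, and those with neither in 28.5%. Of distal peaks not called again with FSK, 2.49% appeared with FSK and TNFα and 4.01% with TNFα. At promoters, 61.3% of peaks not called again were listed with TNFα. The 49.4% of gained peaks called with FSK and TNFα became 68.8% when the FSK list was cut to the size of the control list. These libraries differ in depth too, and the parts of depth and of the shared inputs were not tested.

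The leading gained peaks were examined by name, after stronger peaks with less than 8-fold enrichment over input (2 at promoters and 5 distal) were set aside. Of these 12 promoter peaks, 7 held a CRE core and 3 the palindrome, all 12 were called with FSK and TNFα, and 9 were called with TNFα alone. The strongest lay 482 bp downstream of a start of Babam2, which encodes a component of DNA repair complexes (chr5:31698452-31698612, in an intron), with 104.6 tags and 41.1-fold enrichment over input. It had 109.4 tags with both agents but 11 with TNFα. Nr4a1 (chr15:101266783-101266943, at the 5′ UTR) had 62.9 with both and no overlapping peak with TNFα, where a peak of 8.31 lay within 1 kb of a start, and Pde10a and Atp5d, a subunit of ATP synthase, likewise had none. Higher with TNFα than with FSK were 5 of the 12. These were Dusp1 (103.1 with TNFα), Slc16a1, a lactate transporter gene (72.4 with FSK, 89.5 with TNFα), Cxcl1 (87.6 with TNFα), Hist2h2bb (95.9 with TNFα), and Rtn4 (68.8 with TNFα). None held a CRE core in the 200 bp around its peak midpoint. The study reports CREs in the Cxcl1 promoter, and the rest of that promoter was not searched here. Hist2h2bb had 70.0 tags, but histone genes have near-identical copies, and its value is uncertain. Rtn4, an endoplasmic reticulum gene, had 55.4 tags and an AP-1 site.

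The 5 leading gained distal peaks were all called with FSK and TNFα and none with TNFα. Over all gained distal peaks, the shares were 40.8% and 12.5%. The strongest of the whole list lay 55064 and 21686 bp upstream of Otogl, with 606.5 and 554.2 tags but only 9.23-fold and 11.2-fold enrichment over input. They lay in 1 of 6 segments of 2 Mb on chromosomes 4 and 10 where the input itself was dense, with a median of 29.6 input tags per FSK peak compared with 2.4 in the whole list. These segments held 16 of the 20 strongest FSK peaks and 9 of the 20 strongest control peaks by tag count, but 1 and 0 by fold over input. The peaks nearest to Trim32 and Tnfsf15 had 172.8 and 170.9 tags with 8.19-fold and 8.67-fold enrichment. The Vdr peak had 114.4 tags at 79.0-fold enrichment and a CRE core, and had 100.6 tags with both agents.

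Kept peaks had more tags with FSK. Over the 1835 pairs the median count was 12.7 in control cells and 20.1 with FSK, and the median ratio of FSK to control was 1.62 (quartiles 1.21 and 2.21, range 0.424 to 6.23). The count was higher with FSK in 1565 pairs (85.3%), at least 2-fold higher in 597 (32.5%), and at least 2-fold lower in 10. Counting each position once and scaling to the tags so counted, an alternative chosen after the data were seen, gave a median ratio of 1.57 and a higher value with FSK in 89.7% of pairs. After 6 kept promoter peaks with less than 8-fold enrichment over input, all in dense input segments, were set aside, the strongest belonged to Jun, an AP-1 subunit (238.3 in control cells and 546.9 with FSK, in a dense input segment), Ift74 (103.8 and 186.2, also in one), Srsf7, a splicing factor (47.7 and 130.8), Polr2a, the largest subunit of RNA polymerase II (41.8 and 124.1), Ing1, a chromatin reader (41.8 and 111.9), and Rpl3, a ribosomal protein (38.7 and 99.8). Of the 8 leading kept promoter peaks, 1 held a CRE core, and all 8 were called in the other CRTC2 libraries as well. Among 483 promoter pairs with at least 15 tags in both lists, the ratio was largest at Ugdh, which makes a precursor of hyaluronan (18.0 and 99.2, 5.51-fold), followed by Id1 (4.62-fold), the stress-response gene Ddit4 (4.31-fold), and the splicing factor gene Srsf2 (4.16-fold). It was smallest at Fam126a (0.626), Rpap1 (0.635), and Ndufb5 (0.659).

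**Figure D4:**
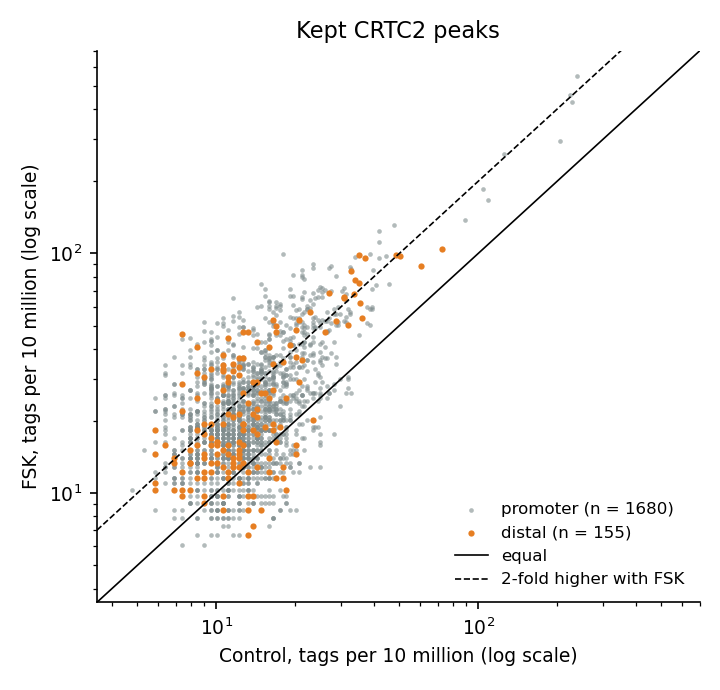
Normalized tag count of each kept CRTC2 peak in the control list (x) and the FSK list (y), tags per 10000000 on log axes, 1 library each. The 1680 promoter pairs (gray) and 155 distal pairs (orange) lie mostly above the solid line of equality (85.3% of pairs), and 32.5% lie on or above the dashed 2-fold line.

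Peaks not called again had few tags. Their median was 10.1 tags and their highest 79.4, compared with 12.7 and 238.3 for kept peaks of the same list. Gained peaks, in the other library, had 12.2 and 606.5. Median enrichment over input was 12.25-fold for peaks not called again, 11.16-fold for kept peaks of the control list, and 9.37-fold for gained peaks. With 3 stronger promoter peaks and 1 stronger distal peak set aside for less than 8-fold enrichment over input, the leading promoter peaks were those of Hgh1 (28.6 tags), Rps3a1 (25.4), Zc3h6 (24.9), Pias3 (24.4), Rapgef6 (23.8), and Rpl19 (21.7). Rps3a1 and Rpl19 encode ribosomal proteins, and both were listed with TNFα (52.9 and 50.6) and with both agents (22.0 and 23.0). In all, 5 of these 6 peaks were called with TNFα and 3 with both agents, and 1 held a CRE core. Over all promoter peaks not called again, the shares were 61.3%, 36.4%, and 18.9%. The leading distal peaks lay nearest to Eqtn (30.2), Pop5 (25.9), and Tubd1 (24.9), and none was called with FSK and TNFα. Of all distal peaks not called again, 2.49% were. At the margin of the overlap rule, 179 kept peaks overlapped by 50 bp or less (median 17.0 tags), and 78 gained peaks lay less than 50 bp from a control peak (median 16.4 tags).

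Rank in the list moved with all of these properties. By tag count, 49.3% of the first decile of the FSK list was gained, 73.1% of the second, and 96.8% of the last. In the control list, 19.5% of the first decile and 83.8% of the last was not called again. From the first to the last decile of the FSK list, the share with a CRE core went from 42.0% to 16.1%, the share within 1 kb of a start from 70.2% to 35.3%, and the share called with FSK and TNFα from 90.8% to 27.9%. The gradient of the gained share depended on the measure of rank. By fold over input, 85.0% of the first decile and 86.9% of the last was gained. In another setting the FSK list was cut to its strongest 5188 peaks, the length of the whole control list. Then 3760 peaks were gained, 1428 were kept, and 3760 were not called again. The last number includes control peaks that overlap weaker FSK peaks left out by the cut. The 4065 genes with a promoter peak in the FSK list only became 2005, and the 466 genes with one in the control list only became 995.

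**Figure D5:**
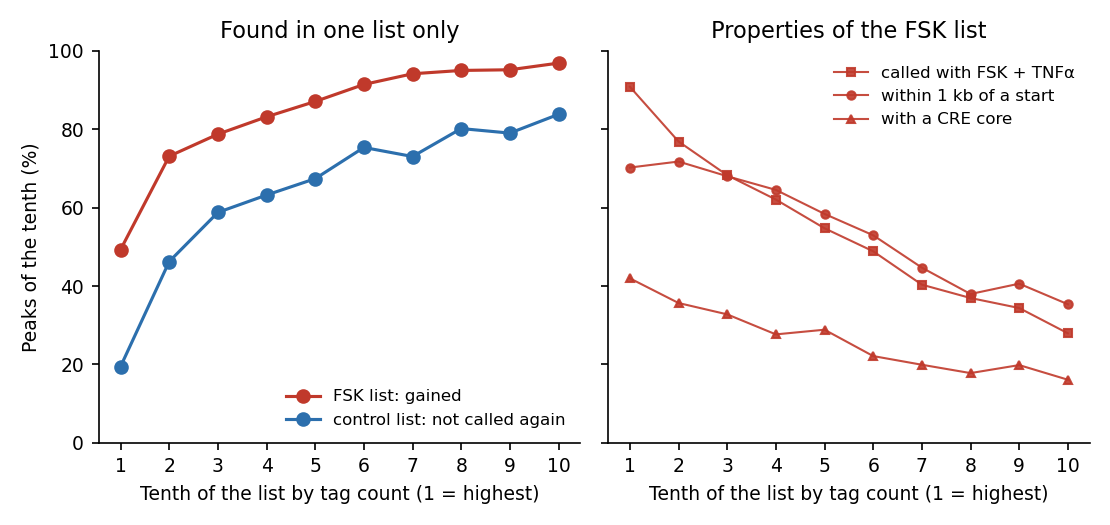
Left, share (%) of each decile of the FSK list that was gained (red) and of the control list that was not called again (blue), with peaks ranked by normalized tag count and 1 the strongest decile. Right, share of each decile of the FSK list called with FSK and TNFα, within 1 kb of a start, or with a CRE core, with all 3 falling from the first decile (90.8%, 70.2%, and 42.0%) to the last (27.9%, 35.3%, and 16.1%).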

How the data were processed

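The analysis started from the deposited peak lists of CRTC2 (control, FSK, TNFα, and FSK with TNFα) and H3AcK27 (control and FSK), 6 of 12 lists, with 1 library each. The p65 lists and the other H3AcK27 lists were not used here. The submitters' processing notes name STAR, HOMER, and mm10, and versions are not given in the sources used here. Peak calling by the authors was done library by library, at a false discovery rate of 0.001, with at least 4-fold ratio to the input (Poisson p-value threshold 0.0001) and, for CRTC2, to the surrounding 10 kb. The deposited signal, the normalized tag count, is scaled to 10000000 tags per library without subtraction of input. The deposited score counts at most 1 tag per position. The deposited fold value is a ratio of peak to input tags, and a deposited fraction, which gives how many tags of a peak sit on the expected side of its center, was not analysed here. Libraries held 9832884 to 31807394 tags, and shallower libraries can miss weaker peaks.

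GRCm38 was taken as the build, since 0 of 16937 peaks passed a chromosome end, and 49.0% of control and 54.4% of FSK peaks lay within 1 kb of a start, compared with 3.43% and 3.87% after a shift of 1 Mb. Starts of protein-coding transcripts were taken from release 21 of the mouse GENCODE annotation, and sequence is from the RefSeq copy of the assembly. Paired values came from overlapping peaks with the nearest midpoints. Motifs were matched exactly on both strands. The comparison and the gene lists were chosen with earlier results of these data known. Named peaks were the strongest of each class with at least 8-fold ratio to input (12, 8, and 6 at promoters and 5, 3, and 3 distal, for gained, kept, and not called again), together with the kept promoter pairs of the largest (4) and smallest (3) ratio and members of the gene lists. Distal sequences shown were the strongest gained peaks with the motif and at least 8-fold ratio to input outside dense input segments. The Ptpn1 peak and any peak on chromosome 18 were left out. Promoter sequences were taken from early genes with a CRE and leading gained peaks with the palindrome. Crem and Egr1 on chromosome 18, and Atp5d, Klf9, and Per2, were left out of these. Alternatives covered the overlap rule, enrichment, list size, tag minimum, dense segments, chromosomes, start sites, promoter reach, motif definition, and ranking. The overlap, distance, and motif code passed 4 of 4 checks on simulated data. Python 3.11.15, numpy, pandas, and scipy were used.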

Additional observations from a re-analysis of the deposited data

Results flagged for a closer look

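The number of CRTC2 peaks moved in opposite directions with FSK in the absence and in the presence of TNFα. The FSK list had 2.26 times as many peaks as the control list (11749 and 5188), whereas the list with FSK and TNFα had 0.726 times as many as the list with TNFα alone (14171 and 19527). Each list came from 1 library, so the difference between these ratios was not tested. In both pairs the library with FSK was called against the input of FSK-treated cells and the library without FSK against the input of untreated cells. Tags counted once per position were 7812000 and 9304000 in the first pair and 9414000 and 13026000 in the second, and their part in the result was not tested.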

How the results depend on the processing

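With 1 library per treatment, no replicate could be left out. No paired analysis was possible because each treatment had 1 library and the labels carry no replicate numbers. Over 14 settings, 139 of 236 recomputed values stayed within their counting interval or within 1.5 times the count, 97 moved further, and no median ratio crossed 1. In settings that removed peaks, the classes were formed again from the peaks left, so a peak could change class. In every setting that recomputed them, the core of the CRE was more frequent in gained peaks than in peaks not called again, and kept peaks lay closest to starts. The causes were not tested.

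With 8-fold enrichment over input, 6224 peaks were gained and 828 kept. Shares within 1 kb became 48.6% (gained) and 33.2% (not called again, median distance 11097 bp), shares with the CRE core 27.4% and 10.4%, and shares in control H3AcK27 regions 83.9% and 44.5%, with 40.8% of peaks not called again in FSK regions. Of gained peaks, 56.8% were called with FSK and TNFα. The median ratio was 1.75 with 39.1% at least 2-fold, the gained share 56.9% in the first decile and 98.4% in the last, and 1042 genes had peaks in both lists and 796 in the control list only.

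With lists of equal size, for which only the FSK list was cut, 3760 peaks were gained. For gained peaks and peaks not called again, shares within 1 kb were 58.7% and 32.5%, median distances 272.5 and 11245 bp, shares with the CRE core 35.5% and 9.97%, and shares in control regions 94.7% and 44.7% and in FSK regions 93.1% and 41.1%. Recurrence of gained peaks was 68.8%, the median ratio 1.81 with 41.4% at least 2-fold, and 2005 and 995 genes had a peak in the FSK or control list only.

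With at least 15 normalized tags, 4101 peaks were gained, 525 kept, and 287 not called again. Gained peaks and peaks not called again lay within 1 kb in 65.8% and 64.5% of cases, in control regions in 96.0% and 74.6%, and in FSK regions in 94.4% and 70.4%. The CRE core occurred in 35.0%, 31.6% (kept), and 17.8%, and recurrence was 72.8%.

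With peaks widened to 500 bp on either side, shares within 1 kb were 44.9% (gained), 89.5% (kept), and 16.2% (not called again, with the CRE core in 6.91%). Gained peaks lay in control and FSK regions in 83.9% and 80.7% of cases and peaks not called again in 28.3% and 24.3%. Recurrence was 61.0%, and the gained share was 43.6% in the first decile and 93.1% in the last. With midpoints within 100 bp as the overlap rule, peaks not called again had 29.7% within 1 kb, 9.57% with the CRE core, and 42.0% and 38.3% in control and FSK regions, recurrence was 43.5%, and the gained share of the first decile was 52.7%.

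With the first start of each gene alone, shares within 1 kb were 42.7%, 83.0%, and 22.5% for gained, kept, and not called again, and median distances 4047.5, 124, and 24037 bp. Within 5000 bp of a start lay 56.5%, 94.3%, and 34.9%. A 100 bp window held the CRE core in 15.6%, 15.9%, and 4.26%, and the palindrome occurred in 2.81%, 3.05%, and 0.298%. Scores per tag counted once per position gave a median ratio of 1.57 with 27.6% at least 2-fold. Ranked by fold over input, 85.0% of the first decile and 86.9% of the last was gained, and ranked by score, 98.0% of the last. Left-out dense segments and chromosome Y moved none of these values beyond the limits above.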

Other observations

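Gained peaks came in groups at a few genes, chosen here after their values were seen and counted with promoter peaks included. Within 100 kb of a start of Mbnl1, which encodes a splicing regulator, 12 gained peaks nearest to this gene had between 10.3 and 40.8 normalized tags, and 10 of the 12 lay in H3AcK27 regions of control cells. Ltbp1, which encodes a binding protein of latent TGFβ, had 10 such peaks (6.69 to 35.9 tags), and Akap2, which encodes an anchor of protein kinase A, had 9 (7.91 to 51.7 tags). Of these groups, 6, 3, and 7 peaks were called again with FSK and TNFα. Rbfox2, another splicing regulator, had 8, of which 4 held an AP-1 site. Peaks not called again were grouped at Zfp703 (7 peaks), Zfhx4 (6), and Fosl2 (5, over a span that includes its promoter), and none of these was called with FSK and TNFα. Fosl2 nevertheless had a promoter peak of 42.4 tags in that library, which did not overlap them.

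Distal peaks not called again were unevenly spread over chromosomes. Chromosome 3 held 18.2% of them and chromosome 15 held 11.8%, whereas these chromosomes make up 5.87% and 3.82% of the genome length. Gained distal peaks had 10.4% and 6.94% there. The 746 distal peaks not called again on these chromosomes lay in H3AcK27 regions of control cells in 15.4% of cases and held a CRE core in 4.83%, compared with 19.8% and 4.81% of those on all other chromosomes. Copy number was not measured.

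Gained promoter peaks that were also called with TNFα held a GC box in 51.0% of cases and an AP-1 site in 1.72%, whereas those not called with TNFα held them in 38.3% and 5.41%. The CRE core occurred in 27.9% of the former and 29.3% of the latter.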
